A study of Mus musculus with 12 samples.

Results

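The hypoxia response and glycolysis genes described here are 35 mouse genes chosen by name from textbook knowledge: the hypoxia-inducible factors (HIFs) and their oxygen sensors (7 genes), HIF targets outside glycolysis (13 genes), and glycolytic enzymes with their regulators (15 genes). The choice was made with earlier results of these data known. Counts of members set beside the share of all genes are therefore descriptions and not independent tests. Of the 35, 32 were measured, within 18193 genes tested on the arrays. The other 3, Bnip3l, Gpi1 and Eno1, had no probe set naming them alone and were not analysed here.

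RNA came from yolk sacs, the membrane in which the embryo's earliest blood cells and vessels form and through which it is nourished, of Hypb+/+ (wild type) and Hypb-/- (knockout) mouse embryos of strain 129Sv/C57BL/6, with no treatment named. Hypb is the older name of Setd2, a methyltransferase that trimethylates histone H3 over the bodies of active genes. The stages were embryonic day 9.0 (E9.0), when the submitters saw no severe defect in the knockout, and E10.5, shortly before its death. There were 12 Affymetrix arrays in 4 groups of 3, and every array came from its own pool of 4 yolk sacs and 5 µg of total RNA. Which exons were removed is not stated in the labels, and neither is a promoter or Cre line that would confine the loss to 1 cell type.

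Cells sense oxygen through the EGLN enzymes, which use it to hydroxylate the HIF alpha subunits Hif1a and Epas1. The VHL protein then marks the hydroxylated subunits for destruction. When oxygen is short the alpha subunits persist, pair with Arnt and bind a short DNA motif at genes that spare oxygen, bring in blood or move energy supply to glycolysis. This control acts mostly on the protein, which the arrays do not read. The pathway is known to be needed for the vessels of the mouse yolk sac and placenta, which form at low oxygen.

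All values are log2 expression values, a difference of 1 being 2-fold, and a change was called at a Benjamini-Hochberg adjusted p below 0.05 over all genes of a comparison in limma. The median standard error (SE) of a knockout comparison was 0.14 over the members and 0.13 over all genes, and with no detection call in the values, precision depends on how many arrays a group has. Setd2 fell in the knockout at both stages, by 1.29 (SE 0.13, adjusted p = 0.00207) at E9.0 and by 0.83 (SE 0.13, adjusted p = 0.00294) at E10.5, with every knockout array below every wild type array. The visceral endoderm markers Afp and Ttr, which define the yolk sac's outer layer, had group means from 13.79 to 14.17. In a spiked control RNA (dap), the 3' minus 5' signal was 1.53 to 1.87 on the 4 arrays numbered replicate 3 and 1.19 to 1.44 on the other 8, a split the labels do not name and in which each side holds all 4 groups. The E9.0 replicate 3 arrays also stood apart from the other 10 in the hybridisation controls, where BioC minus BioB was -0.02 (wild type) and -0.1 (knockout) against 1.42 to 1.53. Results without replicate 3 are therefore given. Whole yolk sacs were read, so fewer cells of a type and less RNA per cell cannot be told apart.

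At E10.5 the knockout yolk sacs had more RNA of 10 of the 32 measured members and less of none. Over all genes 7.28% were called in this comparison, 4.12% of them higher and 3.16% lower in the knockout as shares of the genes tested. By role, 6 of 12 measured HIF targets rose, 3 of 13 glycolytic enzymes and regulators, and 1 of 7 HIF factors and oxygen sensors, with median changes of 0.60, 0.13 and 0.06. Ddit4 rose most, 4.30-fold, from a dim wild type mean of 4.75. The median change was 0.24 over the members and -0.01 over all genes, and 27 of 32 members were positive. An unadjusted p below 0.05 was found for 16 of 32 members and 20.2% of all genes. In 15 members all 3 knockout arrays lay above all 3 wild type arrays and in 0 below, against 22.8% of all genes that did not overlap in either direction.

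**Figure D1:**
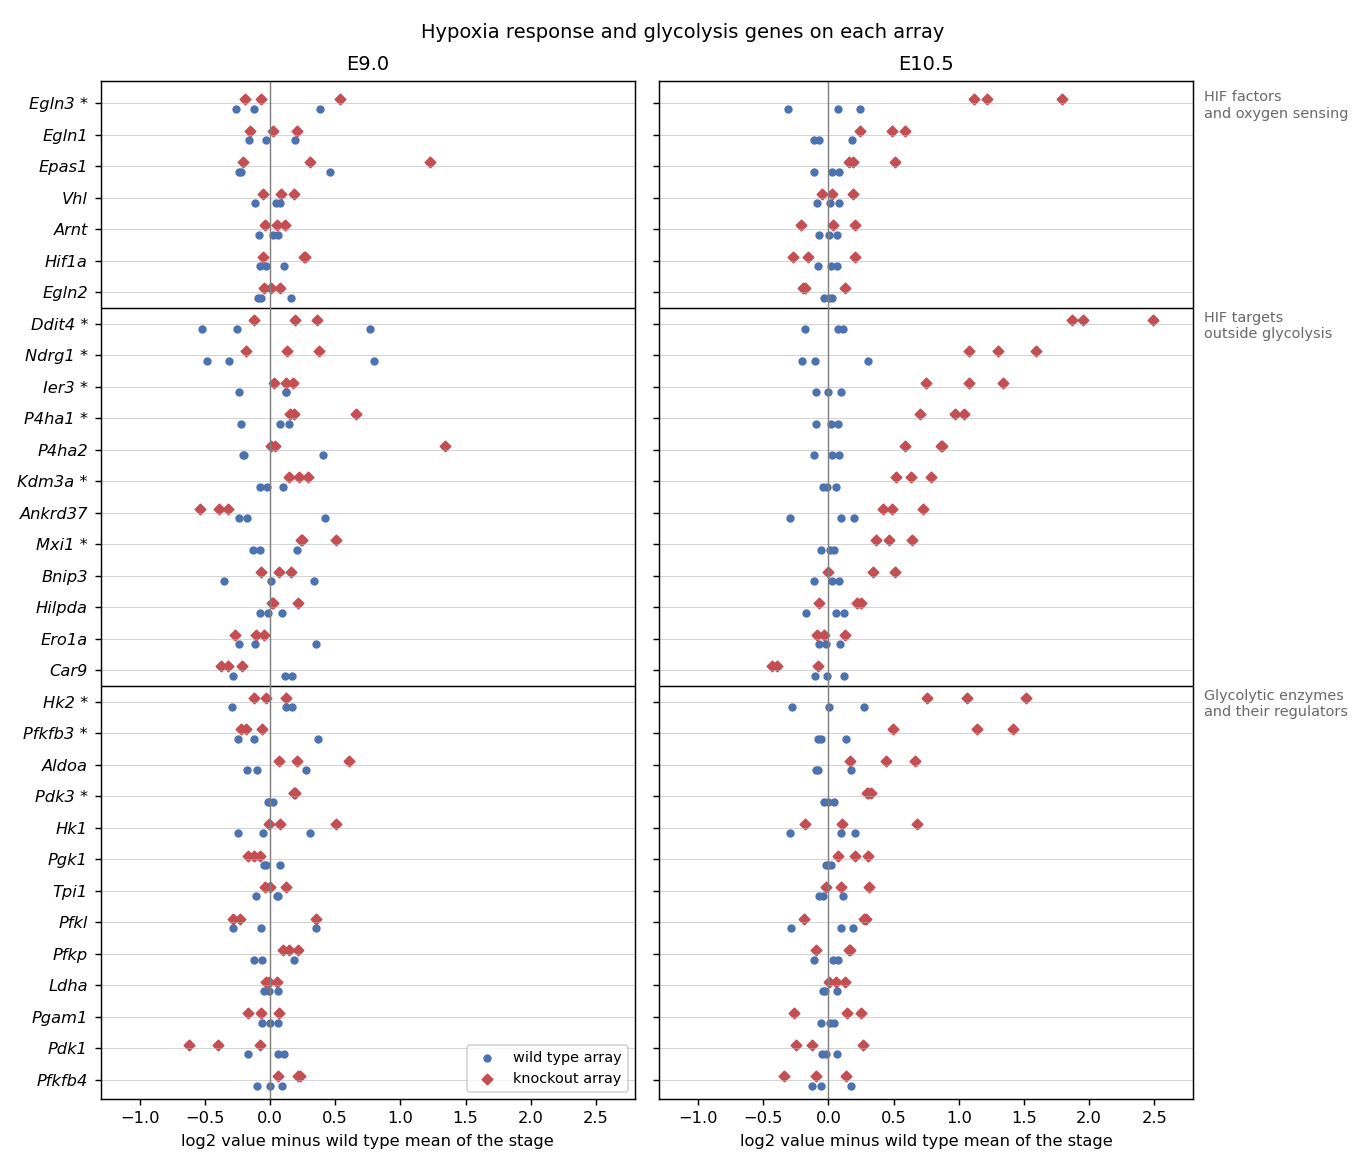
Each row is a measured gene and each point an array, placed at its log2 value minus the mean of the 3 wild type arrays of the same stage, at E9.0 (left) and E10.5 (right). Circles are wild type arrays and diamonds knockout arrays, and an asterisk marks the 10 genes called at E10.5, of which Ddit4, Ndrg1 and Egln3 lie farthest to the right.

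Among the HIF factors and sensors, the gene that rose was Egln3, an oxygen-sensing hydroxylase that is itself known as a HIF target. Its values were 7.01, 7.15 and 7.66 in the E9.0 wild type, 7.20, 7.08 and 7.81 in the E9.0 knockout, 6.75, 6.20 and 6.58 in the E10.5 wild type and 8.30, 7.63 and 7.73 in the E10.5 knockout. The E9.0 groups overlapped, and at E10.5 the knockout arrays lay wholly above the wild type arrays. At E10.5 it changed by 1.38 (SE 0.24; 2.60-fold; adjusted p = 0.00446). Its dimmer probe set gave 0.82 (adjusted p = 0.0579 over all probe sets).

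Egln1, the main oxygen sensor of most cells, read 8.09, 8.34 and 8.05 in the E10.5 wild type and 8.65, 8.40 and 8.75 in the E10.5 knockout. These groups did not overlap, but the change of 0.44 (SE 0.14) missed the threshold (adjusted p = 0.0734). It was called without knockout replicate 2 (adjusted p = 0.0435), with replicate 3 as its own term and after a further quantile normalization. At E9.0 its arrays overlapped, with 8.15, 8.28 and 8.50 in the wild type and 8.33, 8.16 and 8.52 in the knockout. Egln2, the third hydroxylase, gave 9.03, 9.01 and 9.26 against 9.11, 9.05 and 9.18 at E9.0 and 8.93, 8.95 and 8.89 against 8.74, 8.73 and 9.05 at E10.5, wild type first. Both stages overlapped, with an E10.5 change of -0.08 (95% interval -0.32 to 0.15).

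The transcripts of the HIF subunits did not pass the test at either stage. Hif1a read 11.40, 11.26 and 11.22 in the E9.0 wild type, 11.56, 11.55 and 11.24 in the E9.0 knockout, 11.22, 11.32 and 11.37 in the E10.5 wild type and 11.15, 11.03 and 11.51 in the E10.5 knockout. Both pairs of groups overlapped, and the E10.5 change was -0.07 (95% interval -0.36 to 0.21; adjusted p = 0.831). Epas1, the alpha subunit prominent in endothelium, read 10.24, 9.56 and 9.54 in the E9.0 wild type and 10.09, 9.57 and 11.01 in the E9.0 knockout, where knockout replicate 3 stood above the rest. At E10.5 it read 9.34, 9.20 and 9.39 in the wild type and 9.50, 9.47 and 9.82 in the knockout, which did not overlap. Its E10.5 change of 0.29 had a 95% interval from -0.34 to 0.91, and this fit shares 1 error over all 12 arrays.

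Arnt, the common partner of both alpha subunits, read 7.65, 7.69 and 7.54 against 7.74, 7.68 and 7.59 at E9.0 and 7.48, 7.56 and 7.62 against 7.59, 7.34 and 7.76 at E10.5, wild type first. Vhl, which marks the alpha subunits for destruction, read 7.02, 7.18 and 7.21 against 7.08, 7.32 and 7.22 at E9.0 and 7.21, 7.31 and 7.38 against 7.25, 7.33 and 7.49 at E10.5. The groups of both genes overlapped at both stages. The E10.5 change was 0.01 (95% interval -0.23 to 0.25) for Arnt and 0.06 (95% interval -0.17 to 0.28) for Vhl.

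Of the HIF targets outside glycolysis, Ddit4, a stress-induced brake on mTOR signalling, moved most. It read 4.44, 4.17 and 5.46 in the E9.0 wild type, 4.57, 4.88 and 5.05 in the E9.0 knockout, 4.57, 4.82 and 4.86 in the E10.5 wild type and 6.70, 6.62 and 7.24 in the E10.5 knockout. Of the 4 groups, the E10.5 knockout stood apart, its lowest array above every other array. The E10.5 group means were 4.75 ± 0.16 (SD, n = 3) in the wild type and 6.85 ± 0.34 (SD, n = 3) in the knockout, a change of 2.10 (SE 0.28, adjusted p = 0.000709). The Ddit4 probe set was dim, with a 12-array mean of 5.28 and 36.6% of genes dimmer. Whether it read above background outside the E10.5 knockout is not known, so the size of the change is uncertain.

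Ndrg1, a hypoxia-induced protein of cell stress and differentiation, read 6.86, 6.69 and 7.97 in the E9.0 wild type, 7.30, 6.99 and 7.55 in the E9.0 knockout, 7.03, 7.43 and 6.93 in the E10.5 wild type and 8.72, 8.21 and 8.43 in the E10.5 knockout. The E9.0 groups overlapped, with wild type replicate 3 well above its group, and the E10.5 groups did not. The E10.5 change was 1.32 (SE 0.28; 2.50-fold; adjusted p = 0.0136). Its call was lost without wild type replicate 1 (adjusted p = 0.0526), wild type replicate 3 (0.0544) or knockout replicate 1 (0.0628) of E10.5. The other 4 Ndrg1 probe sets gave changes from 0.49 to 1.16, and 2 of them passed over all probe sets.

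Ier3, an early response gene that affects cell survival under stress, read 5.76, 6.12 and 6.12 in the E9.0 wild type, 6.18, 6.03 and 6.12 in the E9.0 knockout, 6.57, 6.67 and 6.48 in the E10.5 wild type and 7.65, 7.32 and 7.91 in the E10.5 knockout. Knockout and wild type overlapped at E9.0 and were far apart at E10.5, where the change was 1.05 (SE 0.14; 2.08-fold; adjusted p = 0.000959). Kdm3a, a histone H3 demethylase whose enzymatic step needs oxygen, read 8.30, 8.35 and 8.48 against 8.60, 8.52 and 8.67 at E9.0 and 8.63, 8.60 and 8.70 against 9.43, 9.16 and 9.28 at E10.5, wild type first. Its arrays did not overlap at either stage. The E10.5 change was 0.65 (SE 0.10, adjusted p = 0.00165), and the E9.0 change of 0.22 had an adjusted p of 0.389.

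P4ha1 and P4ha2 encode catalytic subunits of collagen prolyl hydroxylase, which needs oxygen to stabilise collagen. P4ha1 read 9.23, 9.30 and 8.93 against 9.31, 9.34 and 9.81 at E9.0 and 9.06, 8.94 and 9.11 against 10.08, 9.74 and 10.01 at E10.5, wild type first, with no overlap at either stage. It rose at E10.5 by 0.91 (SE 0.15; 1.87-fold; adjusted p = 0.00328), and its dimmer probe set gave 1.06. P4ha2 gave 9.04, 8.90 and 9.09 in the E10.5 wild type and 9.87, 9.60 and 9.88 in the E10.5 knockout, also without overlap. Its change of 0.77 (SE 0.29) was not called (adjusted p = 0.143), but was without E9.0 knockout replicate 3 (adjusted p = 0.0121), an array at 10.32 beside 9.02 and 8.99 in its group. P4ha2 was also called within replicates 1 and 2 (0.765, adjusted p = 0.0439) and with only the 2 groups' arrays in the fit (adjusted p = 0.0120).

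Mxi1, which competes with Myc for their shared partner Max, read 6.82, 6.76 and 7.10 against 7.13, 7.14 and 7.40 at E9.0 and 7.07, 7.14 and 7.17 against 7.59, 7.49 and 7.77 at E10.5, wild type first. The knockout arrays lay above the wild type arrays at both stages. The E10.5 change was 0.49 (SE 0.12; 1.40-fold; adjusted p = 0.0253). That call was lost without E10.5 wild type replicate 1 (adjusted p = 0.0939), 2 (0.0763) or 3 (0.0572), or knockout replicate 1 (0.0675) or 3 (0.0640).

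The HIF targets that were not called at E10.5 included Ankrd37, an ankyrin repeat protein. It read 6.76, 6.86 and 6.37 in the wild type and 7.39, 7.08 and 7.15 in the knockout, without overlap, with a change of 0.54 (SE 0.18, adjusted p = 0.0886) that was called without E9.0 wild type replicate 3 (adjusted p = 0.0317). Bnip3, a mitochondrial protein that promotes mitophagy, gave 0.28 (adjusted p = 0.389), and the lipid droplet protein Hilpda gave 0.13. Ero1a, an oxidase of the endoplasmic reticulum, gave 0.00 (95% interval -0.30 to 0.30). Car9, a carbonic anhydrase often used as a hypoxia marker, gave -0.30 (adjusted p = 0.224), and 2 of its 3 knockout arrays lay below the wild type arrays. The Car9 probe set was dim, with E10.5 values from 4.65 to 5.20 and 32.3% of genes dimmer. Whether it read above background is not known.

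Among glycolytic genes the rises were in Hk2, Pfkfb3 and Pdk3. Hk2, the hexokinase that traps glucose in the cell, read 9.01, 9.06 and 8.60 in the E9.0 wild type, 8.86, 8.77 and 9.01 in the E9.0 knockout, 7.64, 7.37 and 7.09 in the E10.5 wild type and 8.88, 8.12 and 8.43 in the E10.5 knockout. The E10.5 wild type was the low group, below every other array. Hk2 rose at E10.5 by 1.11 (SE 0.19; 2.16-fold; adjusted p = 0.00466). Hk1, the other hexokinase, gave 0.20 (95% interval -0.28 to 0.69).

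Pfkfb3, which makes the activator of phosphofructokinase, read 5.72, 6.21 and 5.60 in the E9.0 wild type, 5.66, 5.78 and 5.62 in the E9.0 knockout, 5.15, 5.18 and 5.37 in the E10.5 wild type and 6.37, 5.73 and 6.65 in the E10.5 knockout. The E10.5 knockout arrays lay above those of the wild type but were spread, with replicate 2 lowest. The change was 1.02 (SE 0.21; 2.02-fold; adjusted p = 0.0106). Its dimmer probe set gave -0.14, and the mean of both gave 0.44, which was still called. Pfkfb4, the related enzyme, gave -0.10 (adjusted p = 0.754).

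Pdk3 is a kinase that shuts off pyruvate dehydrogenase and so limits the use of pyruvate in the mitochondria. It read 8.65, 8.68 and 8.64 against 8.85, 8.84 and 8.84 at E9.0 and 8.88, 8.93 and 8.85 against 9.19, 9.21 and 9.18 at E10.5, wild type first. The arrays of each group were close together and the genotypes did not overlap at either stage. The E10.5 change was small, 0.31 (SE 0.08; 1.24-fold; adjusted p = 0.0291). The call was lost without any 1 of E10.5 wild type replicates 1 (adjusted p = 0.0952), 2 (0.0660) and 3 (0.0900) or knockout replicates 1 (0.0788) and 2 (0.0585), within replicates 1 and 2, with arrays centred on their medians, and with only the 2 groups' arrays in the fit. Its relative Pdk1, a standard HIF target, gave -0.04 by the probe set used, while another of its 4 probe sets gave 0.72 (adjusted p = 0.0213 over all probe sets).

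The remaining enzymes of the glycolytic chain did not pass the test at E10.5. Ldha, which turns pyruvate into lactate, read 12.79, 12.90 and 12.83 in the E9.0 wild type, 12.89, 12.81 and 12.83 in the E9.0 knockout, 12.77, 12.79 and 12.88 in the E10.5 wild type and 12.87, 12.82 and 12.94 in the E10.5 knockout. Its groups overlapped at both stages, and the E10.5 change was 0.06 (95% interval -0.12 to 0.24), an interval that holds no change as large as 2-fold. The aldolase Aldoa gave 0.42 (SE 0.17, adjusted p = 0.179), and passed with replicate 3 of each stage as its own term (adjusted p = 0.0487). Pgk1, Tpi1, Pfkl, Pfkp and Pgam1, which catalyse other steps, gave changes of 0.19, 0.13, 0.12, 0.08 and 0.04. Ldha, Aldoa, Pgk1, Tpi1 and Pgam1 were bright, with 95.8% to 99.4% of genes dimmer. Whether the arrays read changes in full at such levels was not tested.

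**Figure D2:**
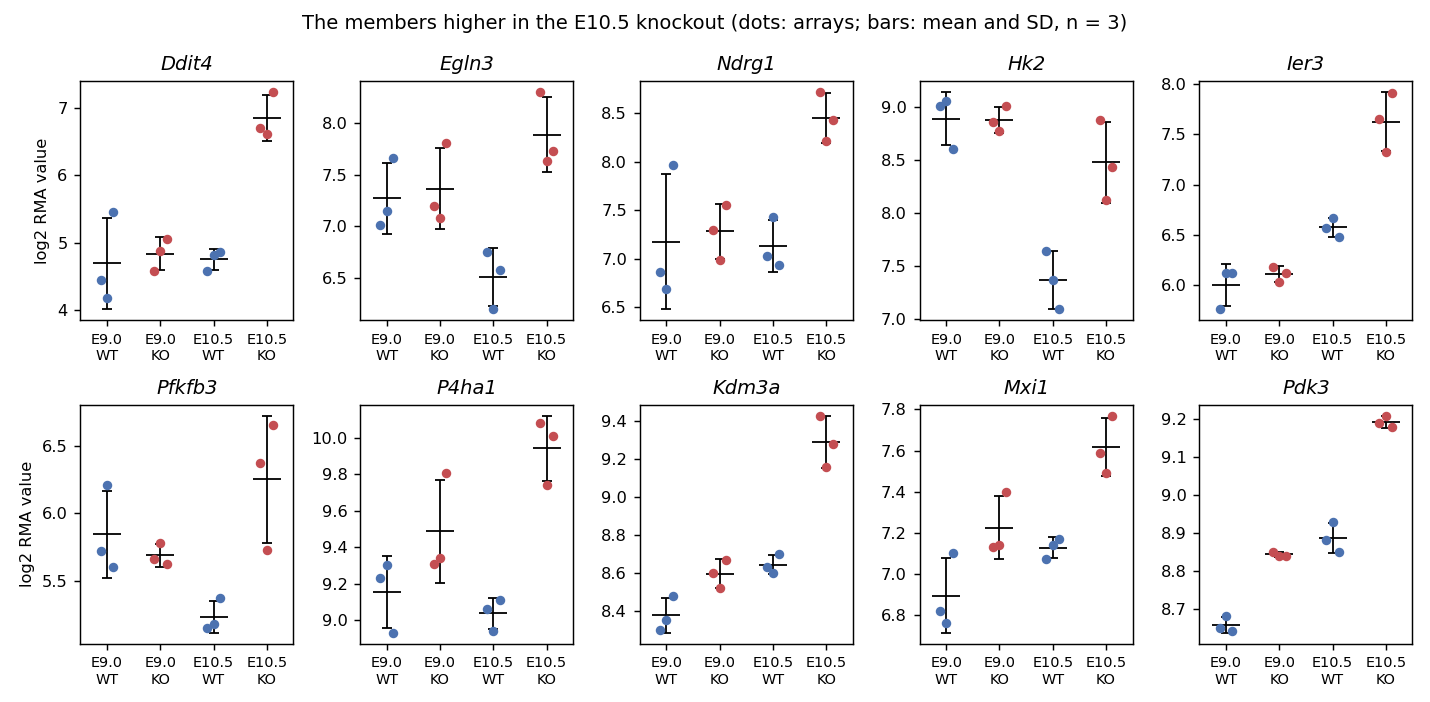
Each panel shows a gene called higher in the E10.5 knockout, with the deposited log2 value on the vertical axis, each array as a dot, and the mean and SD of the 3 arrays of a group as bars. For Ddit4 the E10.5 knockout stands above the other 3 groups (6.85 against 4.69 to 4.83), while for Hk2 the E10.5 wild type lies below them (7.37 against 8.48 to 8.89).

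Within replicates 1 and 2 of every group, 9 of the 10 genes were called at E10.5, Pdk3 being the exception. Replicate 3 alone is 1 array against 1 and gives no test. Of the 10 calls, 7 held under every alternative in which the gene was tested: Ddit4, Egln3, P4ha1, Kdm3a, Ier3, Hk2 and Pfkfb3.

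The promoters of the members were read for the HIF motif, ACGTG or GCGTG on either strand, in the 250 bases before each start in RefSeq (build GRCm38.p6). Of the 35 members 32 had an entry, and Epas1, Bnip3l and Ndrg1 were not among them. The motif occurred in at least 1 window of 28 of the 30 measured members with an entry (93.3%), against 53.6% of the 14452 tested genes with one. The members' promoters were also richer in G and C (median 65.2% against 58.8%, taking the richest window of each gene). Genes with several starts have several windows, and counted by window the motif was in 33 of 42 (78.6%) for the members and 48.9% for the tested genes. By window the median G and C was 62.8% for the members and 57.6% for the tested genes. It occurred in 9 of 9 genes that rose at E10.5 and in 19 of 21 (90.5%) that were not called, so its presence did not separate them. Shown are 4 of the genes that rose, from each functional group, beside Ldha, which was not called. Capitals mark the motif, as CACGT or CACGC where it lies on the opposite strand, and as CACGTG where both strands carry it. Each runs 5' to 3' along the gene's strand and ends 1 base before the start. They lie at chr10:59951771-59952020 on the minus strand (Ddit4), chr12:54203875-54204124 on the minus strand (Egln3), chr6:82774455-82774704 on the minus strand (Hk2), chr10:59323046-59323295 on the plus strand (P4ha1) and chr7:46845554-46845803 on the plus strand (Ldha).
Ddit4: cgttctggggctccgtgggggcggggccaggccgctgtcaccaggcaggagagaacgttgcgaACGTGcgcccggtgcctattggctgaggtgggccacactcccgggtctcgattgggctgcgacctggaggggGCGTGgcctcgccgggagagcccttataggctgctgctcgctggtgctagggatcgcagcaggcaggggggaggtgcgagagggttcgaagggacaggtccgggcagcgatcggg
Egln3: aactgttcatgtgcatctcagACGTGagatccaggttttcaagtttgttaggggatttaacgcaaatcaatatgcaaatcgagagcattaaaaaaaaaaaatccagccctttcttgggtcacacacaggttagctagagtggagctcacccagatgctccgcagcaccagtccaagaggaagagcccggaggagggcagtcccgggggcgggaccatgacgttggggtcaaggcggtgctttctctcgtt
Hk2: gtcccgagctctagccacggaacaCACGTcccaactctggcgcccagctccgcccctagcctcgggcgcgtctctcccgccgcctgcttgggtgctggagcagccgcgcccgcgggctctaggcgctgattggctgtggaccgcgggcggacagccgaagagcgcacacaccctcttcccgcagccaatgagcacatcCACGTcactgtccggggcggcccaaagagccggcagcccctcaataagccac
P4ha1: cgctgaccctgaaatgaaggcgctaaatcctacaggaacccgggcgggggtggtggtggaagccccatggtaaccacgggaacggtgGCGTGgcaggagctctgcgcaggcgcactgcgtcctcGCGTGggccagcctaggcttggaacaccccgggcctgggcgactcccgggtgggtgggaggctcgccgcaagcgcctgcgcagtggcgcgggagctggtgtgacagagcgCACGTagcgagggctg
Ldha: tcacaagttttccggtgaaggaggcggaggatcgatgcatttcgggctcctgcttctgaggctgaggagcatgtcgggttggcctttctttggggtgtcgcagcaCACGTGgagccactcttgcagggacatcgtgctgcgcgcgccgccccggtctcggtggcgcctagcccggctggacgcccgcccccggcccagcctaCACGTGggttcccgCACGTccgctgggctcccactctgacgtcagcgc

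Ddit4 carried 2 matches, Egln3 1, Hk2 2 and P4ha1 3, while Ldha, with no called change, carried 5 in this window, counting each strand of its 2 CACGTG sequences. A match describes the letters and is not a shown binding site.

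At E9.0 no member was called in limma (0 of 32), nor within replicates 1 and 2, and 7 had an unadjusted p below 0.05. Over all genes 1.18% were called and 11.8% had an unadjusted p below 0.05. The median change of the members was 0.08, and -0.01 over all genes. The changes of the members ran from -0.42 for Ankrd37 to 0.46 for P4ha2. Within replicates 1 and 2 they were -0.145 for Ankrd37 and -0.08 for P4ha2. Of the 10 genes that rose at E10.5, P4ha1, Kdm3a, Mxi1 and Pdk3 had all E9.0 knockout arrays above all wild type arrays, with changes of 0.33, 0.22, 0.33 and 0.19 and adjusted p from 0.245 to 0.402. Within replicates 1 and 2 the change of P4ha1 was only 0.06, and those of Kdm3a, Mxi1 and Pdk3 were 0.235, 0.345 and 0.18. Among the other members Ankrd37 and Pgk1 had all knockout arrays below all wild type arrays. Over all genes 18% did not overlap at E9.0. For the other 6 the E9.0 groups overlapped, with changes from -0.16 for Pfkfb3 to 0.14 for Ddit4.

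Whether the knockout's effect differed between the stages was tested as the difference of the 2 effects. No member passed (0 of 32 in limma, 10 with an unadjusted p below 0.05), and over all genes 0.187% were called, with 8.30% below 0.05 unadjusted. Ddit4 came nearest, with a difference of 1.96 (SE 0.39, adjusted p = 0.0707), followed by Ier3 with 0.94 (adjusted p = 0.105). Ddit4 was called without E9.0 wild type replicate 2 (2.22, adjusted p = 0.0487) or 3 (1.57, adjusted p = 0.0451), within replicates 1 and 2, with arrays centred on their medians, and with the replicate number or replicate 3 as a term. Ier3 (1.10, adjusted p = 0.0245) and Pfkfb3 (1.43, adjusted p = 0.0197) were called without E10.5 knockout replicate 2. Hk2 gave 1.12 (adjusted p = 0.146), Egln3 1.29 (0.187) and Ndrg1 1.22 (0.343).

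The change of Ankrd37 differed in sign between the stages, but was called at neither. At E9.0 Ankrd37 read 6.08, 6.14 and 6.74 in the wild type and 6.00, 5.93 and 5.78 in the knockout, all of the latter below the former. This change of -0.42 had an adjusted p of 0.362 in limma and was -0.145 within replicates 1 and 2. At E10.5 all knockout arrays lay above. The difference between the stages was 0.96 (SE 0.25), with an adjusted p of 0.182. Pgk1 had the same pattern, with all knockout arrays below at E9.0 (-0.12) and all above at E10.5 (0.19), called at neither. Its difference between the stages was 0.32 (SE 0.12, adjusted p = 0.493). Other members changed sign too, such as Hk2 and Pfkfb3, whose E9.0 groups overlapped.

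In the wild type 5 members were higher and 5 lower at E10.5 than at E9.0. Over all genes 22.2% were called, 13.4% higher and 8.86% lower as shares of the genes tested. The arrays of E10.5 wild type are the ones that also serve in the E10.5 knockout comparison. The hexokinases and the glycolytic mutase Pgam1 fell: Hk2 by 1.52 (SE 0.19, adjusted p = 0.000187), Hk1 by 0.79 (adjusted p = 0.0224) and Pgam1 by 0.46 (adjusted p = 0.0183). Pfkfb4 fell by 0.61 and Egln3 by 0.76 (SE 0.24, adjusted p = 0.0356), while Pfkfb3, at -0.61, just missed (adjusted p = 0.0511). Pfkfb3 was called lower under 9 of 21 alternatives, though its dimmer probe set gave 0.10. The phosphofructokinase Pfkp rose by 0.62 (its 3 probe sets averaged gave 0.27, which was not called, adjusted p = 0.0783), Bnip3 by 0.65, Hilpda by 0.64, Ier3 by 0.57 and Pdk3 by 0.23 (adjusted p = 0.0465).

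Several of these calls turned on single arrays. The count of 10 became 6 without E9.0 wild type replicate 1, which ended the calls of Bnip3 (adjusted p = 0.0620), Ier3 (0.0617), Hk1 (0.0522) and Pdk3 (0.117). Hk1 was also lost without E9.0 wild type replicate 3 (0.0846) or E10.5 wild type replicate 3 (0.0982). Pgam1 was lost without E9.0 wild type replicate 2 (0.0533) or 3 (0.0543) or E10.5 wild type replicate 1 (0.0631), and Egln3 without E9.0 wild type replicate 2 (0.0636) or 3 (0.132) or E10.5 wild type replicate 2 (0.137) or 3 (0.0737). Pdk3 lost its call when any 1 of 10 of the 12 arrays was left out (0.0544 to 0.135), and also under the replicate block (0.0507), whereas Hk2 kept its call under every alternative run. Within replicates 1 and 2 there were again 10 calls, 7 of them of the same genes, without Egln3 (0.105), Pdk3 (0.0929) and Pfkfb4 (0.0501). The calls gained there were Ankrd37 (0.70, adjusted p = 0.00567) and Mxi1 (0.315, 0.0461), both higher, and Pfkfb3 (-0.80, 0.0336), lower.

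In the knockout 12 members were higher at E10.5 than at E9.0 and 2 lower, where 23.6% of all genes were called, 14.4% higher and 9.17% lower. Ddit4 rose by 2.02 (SE 0.28, adjusted p = 0.000304), Ier3 by 1.52 (SE 0.14, adjusted p = 2.72e-05), Ankrd37 by 1.30 (SE 0.18, adjusted p = 0.000284) and Ndrg1 by 1.17 (adjusted p = 0.00949). Bnip3 (0.88), Kdm3a (0.69), Hilpda (0.68), Pfkp (0.54), P4ha1 (0.46), Mxi1 (0.39), Pdk3 (0.35) and Pgk1 (0.34) rose too, and Pfkfb4 fell by 0.88 and Hk1 by 0.78. Hk2, which fell in the wild type, gave -0.40 here (adjusted p = 0.160), and Egln3 and Pfkfb3 gave 0.52 and 0.56 (adjusted p = 0.138 and 0.0668). Set beside this, the wild type changes between stages were 0.06 for Ddit4 and -0.04 for Ndrg1.

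Leaving out single arrays moved 4 of these knockout calls. Mxi1 was lost without E9.0 knockout replicate 1 (adjusted p = 0.0994) or 2 (0.0974) or E10.5 knockout replicate 1 (0.0569) or 3 (0.0858). Hk1 was lost without E9.0 knockout replicate 3 (0.0962) or E10.5 knockout replicate 1 (0.0938) or 2 (0.0779), and Pgk1 without E10.5 knockout replicate 1 (0.0526). P4ha1 was lost when any 1 of 8 of the 12 arrays was left out (0.0521 to 0.150), and its 2 knockout groups overlapped. Within replicates 1 and 2 there were 17 calls, 13 of them of the same genes, without Pgk1 (0.0671). The calls gained were Hif1a (-0.465, adjusted p = 0.0119) and Egln2 (-0.345, 0.0230), both lower, and Egln3 (0.825, 0.0331) and P4ha2 (0.73, 0.0230), both higher. With all arrays Hif1a gave -0.22 (adjusted p = 0.265). Centring each array on its median removes 0.10 from the wild type and 0.13 from the knockout stage change of every gene, and the splits then read 4 higher and 6 lower in the wild type and 8 higher and 4 lower in the knockout.

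Cell type markers moved between the stages as well. In the wild type 6 of 7 macrophage markers rose (median 0.88; summed level 10.02 to 10.18 at E9.0 and 11.34 to 11.51 at E10.5), 3 of 8 endothelium markers fell (Cdh5, Kdr and Tek) and 1 rose, and 2 of 6 heart muscle markers fell. In the knockout all 7 macrophage markers rose (median 1.05; 9.76 to 10.14 and then 10.995 to 11.184), 5 of 6 heart muscle markers rose (median 1.49; 7.43 to 8.42 and then 9.29 to 11.09), and 3 of 7 red cell markers fell (Gata1, Klf1 and Slc4a1). Their part in the members' stage changes was not tested.

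**Figure D3:**
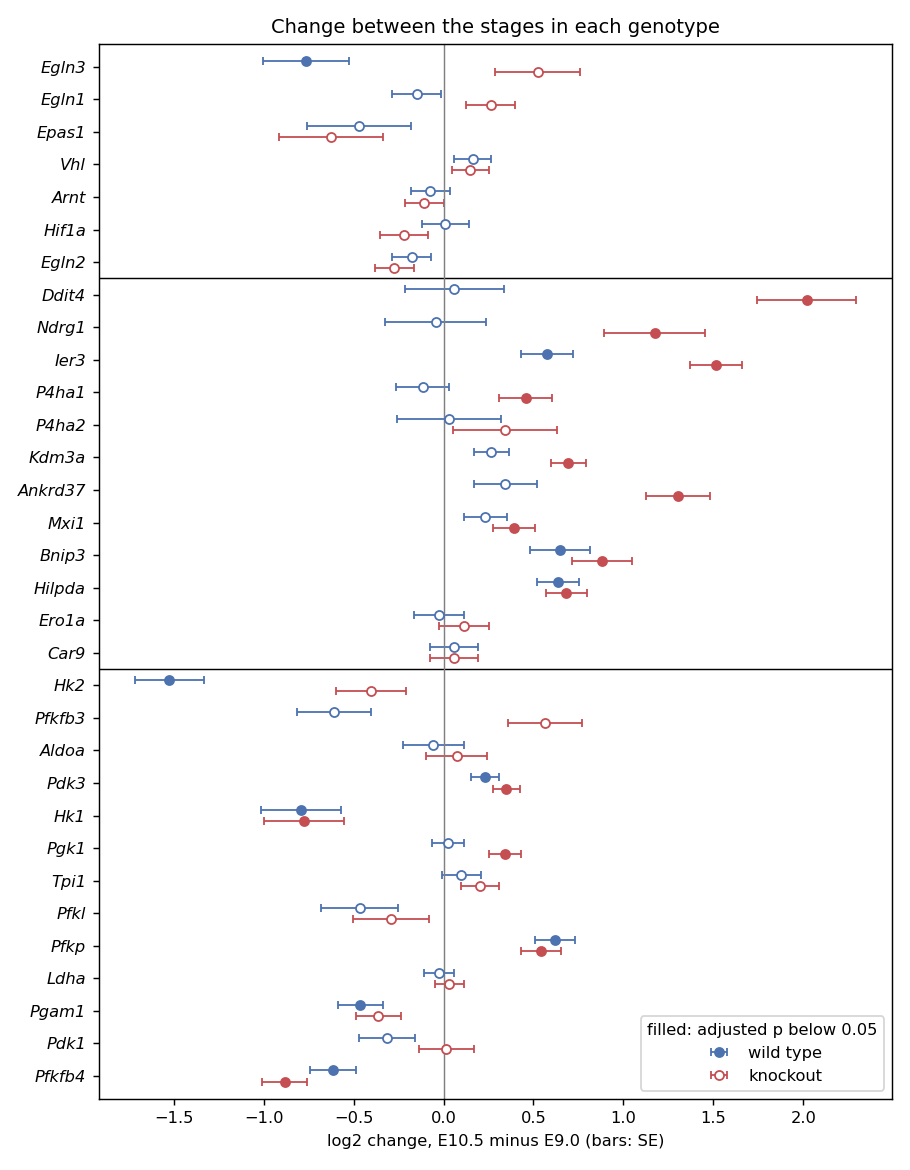
Points show the log2 change from E9.0 to E10.5 of each measured member in the wild type and in the knockout, with SE bars, and filled points have an adjusted p below 0.05. Hk2 is farthest to the left in the wild type (-1.52) and Ddit4 farthest to the right in the knockout (2.02).

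Further genes of the same pathways, from lists that hold none of the members, were read at E10.5 too. These lists were also chosen with earlier results of these data known. Of 31 measured further hypoxia-induced genes, 5 were higher and 1 lower in the knockout, with a median of 0.20. Over all genes 4.12% were higher and 3.16% lower, and 20.2% had an unadjusted p below 0.05, the shares against which these lists' counts are to be read. The 5 were Igfbp3, which binds insulin-like growth factors, the vessel-dilating peptide Adm, the glycogen regulator Ppp1r3c, the vessel-constricting peptide Edn1 and Vegfa, the main growth factor of vessels. Igfbp3 read 7.64, 7.28 and 7.83 in the wild type and 9.45, 8.72 and 9.72 in the knockout, a change of 1.71 (SE 0.22, adjusted p = 0.000717). Adm read 5.63, 6.15 and 5.71 against 7.71, 6.58 and 7.38, a change of 1.39 (adjusted p = 0.00448). Neither pair of groups overlapped.

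Vegfa moved less, from 7.89, 7.80 and 7.82 to 8.21, 8.10 and 8.53, a change of 0.44 (SE 0.11, adjusted p = 0.0343). Ppp1r3c rose by 1.02 and Edn1 by 0.64, and the collagen lysyl hydroxylase Plod1 fell by 0.87 (adjusted p = 0.0433). The glucose carriers Slc2a1 (0.28, adjusted p = 0.224) and Slc2a3 (-0.07) and the lactate carrier Slc16a3 (0.85, adjusted p = 0.137) did not pass.

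Of 17 measured further enzymes of glycolysis and gluconeogenesis, 2 were higher and 1 lower. The enolases Eno2 and Eno3, named for neurons and muscle, rose by 0.48 (adjusted p = 0.0155) and 0.62 (adjusted p = 0.0157). The Eno2 probe set was dim, with E10.5 values from 2.93 to 3.53 and only 7.3% of genes dimmer, so whether it read above background is not known. Fbp2, a gluconeogenic bisphosphatase, read 10.07, 10.41 and 10.22 in the wild type and 8.62, 9.31 and 8.47 in the knockout, and fell by 1.43 (SE 0.27, adjusted p = 0.00667). Of 13 further HIF regulators Arnt2, a relative of Arnt, rose by 0.69 (adjusted p = 0.0297), although 1 knockout array lay within the wild type range. The Arnt2 probe set was also dim, with 31.6% of genes dimmer. Of 10 genes that carry pyruvate into mitochondrial metabolism none was called in limma (3 with an unadjusted p below 0.05) and all 10 changes were negative, with a median of -0.15. At E9.0 none of these 4 lists had a called gene, and 14 of their 71 measured genes had an unadjusted p below 0.05, against 11.8% of all genes.

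Markers of other cells moved at E10.5 as well. Heart muscle markers, which a yolk sac should hold little of, had a median difference from the wild type mean of 2.57, 0.42 and 1.46 on knockout replicates 1, 2 and 3. Their summed level was 9.29 to 11.09 on the knockout arrays and 8.30 to 8.65 on the wild type arrays, and 2 of 6 rose, Myl7 by 3.21 and Tnnt2 by 1.92.

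Mesothelium and mesenchyme markers differed by 0.50 to 0.75 on the knockout arrays (3 of 7 rose: Acta2, Tagln and Vim), with a summed level of 14.43 to 15.11 against 14.32 to 14.53. Endothelium markers differed by 0.02 to 0.67 (1 of 8 rose, Pecam1), with a summed level of 10.85 to 11.30 against 10.45 to 10.87. Immediate early genes, which respond to handling and stress, differed by 0.03 to 0.81 (3 of 7 rose: Egr1, Dusp1 and Atf3), with a summed level of 10.09 to 10.87 against 9.92 to 9.95. For mesothelium and mesenchyme the summed levels overlapped, for endothelium both measures did, with knockout replicate 2 inside the wild type range, and for the immediate early genes neither did.

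Primitive red cell markers differed by -0.85 to -0.07 (1 of 7 fell, Epb42; summed level 15.55 to 15.78 against 15.84). Visceral endoderm markers differed by -0.28 to -0.09 (1 of 8 fell, Cubn; summed level 16.36 to 16.45 against 16.49 to 16.56). Macrophage markers differed by 0.25 to 0.37, with 3 of 7 higher, Csf1r, Cx3cr1 and Tyrobp, and Fcgr3 lower (summed level 10.995 to 11.184 against 11.34 to 11.51). Of 5 trophoblast markers 2 were measured, Tpbpa and Prl8a2, and neither was called. For none of these lists was its part in the members' changes tested.

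**Figure D4:**
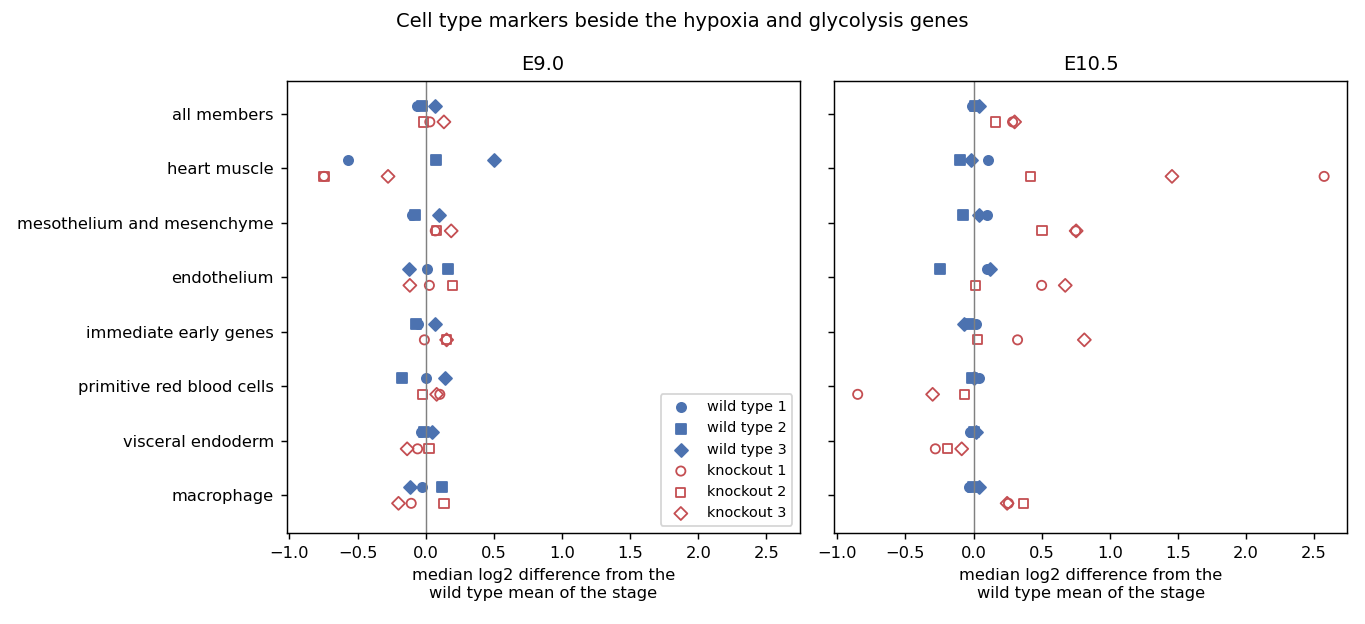
Each symbol is an array, at the median over a gene list of the log2 difference from the wild type mean of its stage, for the measured members and 7 marker lists, with circles, squares and diamonds for replicates 1, 2 and 3, filled for wild type and open for knockout. At E10.5 the members lie between 0.16 and 0.30 on the knockout arrays, while heart muscle markers range from 0.42 to 2.57.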

How the data were processed

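Total RNA from pools of yolk sacs was hybridised to 1-colour Affymetrix arrays. The deposited log2 values come from RMA, per the submitters' processing notes, whose version is not given in the sources used here. RMA brings all arrays to 1 distribution and compresses changes of dim probe sets. There were 45101 probe sets, with log2 values between 2.03 and 14.49, and the tests used none of the 64 controls. Of the rest, 34945 had 1 gene symbol in the platform annotation, 932 several and 9160 no entry. The probe set with the highest 12-array mean was used for each gene, giving 18193 genes, of which 18032 matched the reference by gene ID. The members had 68 such probe sets.

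One mean per group was fitted to the 12 arrays with limma 3.58.1 in R 4.3.3 with empirical Bayes moderation (8 residual and 4.56 prior degrees of freedom), for 5 comparisons. Tests were two-sided with Benjamini-Hochberg adjustment over all genes. The fit was tested on simulated data. The members and lists were chosen with earlier results of these data known. Named with every array are members called in a knockout comparison, and Hif1a, Epas1, Arnt, Vhl, Egln1, Egln2, Egln3 and Ldha. Of the further pathway lists (81 genes, 71 measured), called genes are named, and marker lists held 56 genes, 52 measured. P4ha2, Ankrd37, Igfbp3, Adm, Vegfa and Fbp2 are given array by array, and the carriers are named, as a choice made after their values were seen. The replicate arrays are biological repeats, per the design text. Alternatives were a replicate block, replicate 3 as a term, replicates 1 and 2 alone, each array left out, centring, quantile normalization, bright genes only, other probe set rules, the compared groups alone and a robust trended prior.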

Additional observations from a re-analysis of the deposited data

How the results depend on the processing

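At E9.0 the count of called members was 0 under all 22 alternatives. At E10.5 the 10 calls became 7 to 12, with 10 under the replicate block, 12 with replicate 3 as a term and 7 to 11 when single arrays were left out, and all were higher in the knockout. The difference between stages went from 0 called members to 1 with the replicate block, 1 with replicate 3 as a term, 1 within replicates 1 and 2 and 1 with arrays centred on their median, each time Ddit4, and to between 0 and 2 when single arrays were left out. The change in wild type went from 10 to between 6 and 12 (6 to 11 with single arrays left out, 9 under the block), and in the knockout from 14 to between 10 and 17 (11 to 15, and 15 under the block). Over all genes the counts went from 215 to between 33 and 476 at E9.0, from 1325 to between 693 and 2081 at E10.5, from 34 to between 0 and 91 for the difference, from 4044 to between 2911 and 4564 in the wild type and from 4290 to between 3009 and 4924 in the knockout. Same-numbered arrays deviated together weakly (r from 0.034 to 0.401, 4 of 6 pairs over 0.1, against -0.362 to 0.26 for other pairs). The replicate 3 pairs gave 0.241 at E9.0 and 0.401 at E10.5. The main fit did not take the numbers as pairs, and these values do not exclude a shared replicate effect. The replicate number and replicate 3 were therefore used as terms in alternatives. Of 3473 single member values under alternatives, 3345 kept their side of the threshold, 75 lost a call and 53 gained 1. A reversal was counted only where a call was involved, and there were 0. Uncalled changes did change sign under some alternatives, such as Hif1a at E10.5 (-0.21 to 0.03) and Ddit4 at E9.0 (-0.12 to 0.53). Ddit4, Pfkfb3 and Car9 were not tested in the filter for bright genes. The fit with the compared groups alone was not run for the difference, which uses all 4 groups. RMA gives no depth, and 3 arrays a group limit the precision.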
